A study of Drosophila melanogaster with 5 samples.

Results

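The 34 neuronal and synaptic genes described here were chosen by name, as genes whose products mark neurons, carry out transmitter release, make or load transmitters, form potassium channels or hold synapses together. They are 34 of the 16988 gene symbols to which the counted transcripts of the series were matched, and they hold 258 of its 34111 RefSeq transcripts. RNA was sequenced from whole adult flies of the line Oregon (Oregon-R in the study's methods), 3 days old by the labels, with 3 libraries of LB-flies (low background radiation) and 2 libraries of NB-flies (normal background radiation). The LB-flies developed in a deep underground laboratory and the NB-flies in a ground laboratory, on the same medium and in the dark, and no allele, transgene or drug was used in either group. By the study's methods, each library was made from males pooled from 1 vial, so the libraries are separate cultures. Each radiation level was studied in 1 laboratory, so radiation and any other difference between the laboratories cannot be told apart.

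Neurons signal by opening and closing ion channels along the membrane and by fusing transmitter-filled vesicles with it at the synapse. A vesicle is loaded by a transporter, docked at the active zone, fused by the SNARE proteins when calcium enters through a voltage-gated channel, and then retrieved by endocytosis. Many of the Drosophila genes for these steps were found through mutants that are paralysed by heat or shake under ether. Most of them are large, with many alternative transcripts that share most of their exons.

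Each transcript was counted separately. Reads that the counting tool set aside as ambiguous between transcripts were in no count, so that transcripts which share most of their exons kept few reads. The counting mode, which decides how a read that overlaps several transcripts is treated, was not given in the sources used here. The counted reads were 24790062, 23027411 and 23816650 in LB replicates 1, 2 and 3, against 26036113 and 25001792 in NB replicates 1 and 2, and between 53.9% and 56.5% of the records of a library were ambiguous. Levels are given as CPM, counts per 1000000 counted reads after scaling the library sizes by the trimmed mean of M-values (TMM), and 3 counts were worth 0.115 to 0.136 CPM. LB replicate 1 stood apart from the other libraries in genes of other tissues: accessory gland markers summed to 1320 CPM in it, against 3820 and 4450 CPM in LB replicates 2 and 3 and 2620 and 2630 CPM in the NB libraries. Its muscle markers summed to 9000 CPM, against 14200 to 22000 CPM in the other 4 libraries. Results for the neuronal and synaptic transcripts as a set, and for some single transcripts, are therefore also given without it.

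Of the 258 neuronal and synaptic transcripts, 170 had no count in any library and 5 had fewer than 10 counts in all, which left 83 transcripts of 32 genes for the test. Few transcripts had sequence of their own. Of the 270 transcripts annotated for the 34 genes, 82 had an exon base that no other annotated transcript held, and 57 had at least 100 such bases. In 25 of the 34 genes the number of transcripts with a count equalled the number with bases of their own, and in the other 9 it did not. Syn, which encodes the vesicle-associated phosphoprotein synapsin, had 4 transcripts listed, none with bases of its own and none with a count. The potassium channel gene eag had 7 transcripts, of which 2 were counted, with 1, 1 and 0 counts in the LB libraries against 6 and 2 counts in the NB libraries, so neither reached the filter. For both genes the lack of counts says nothing of their abundance in the flies. The vesicular transporter genes VGAT and VAChT and the vesicle GTPase gene Rab3 had 1 listed transcript each, and that transcript was tested.

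**Figure D1:**
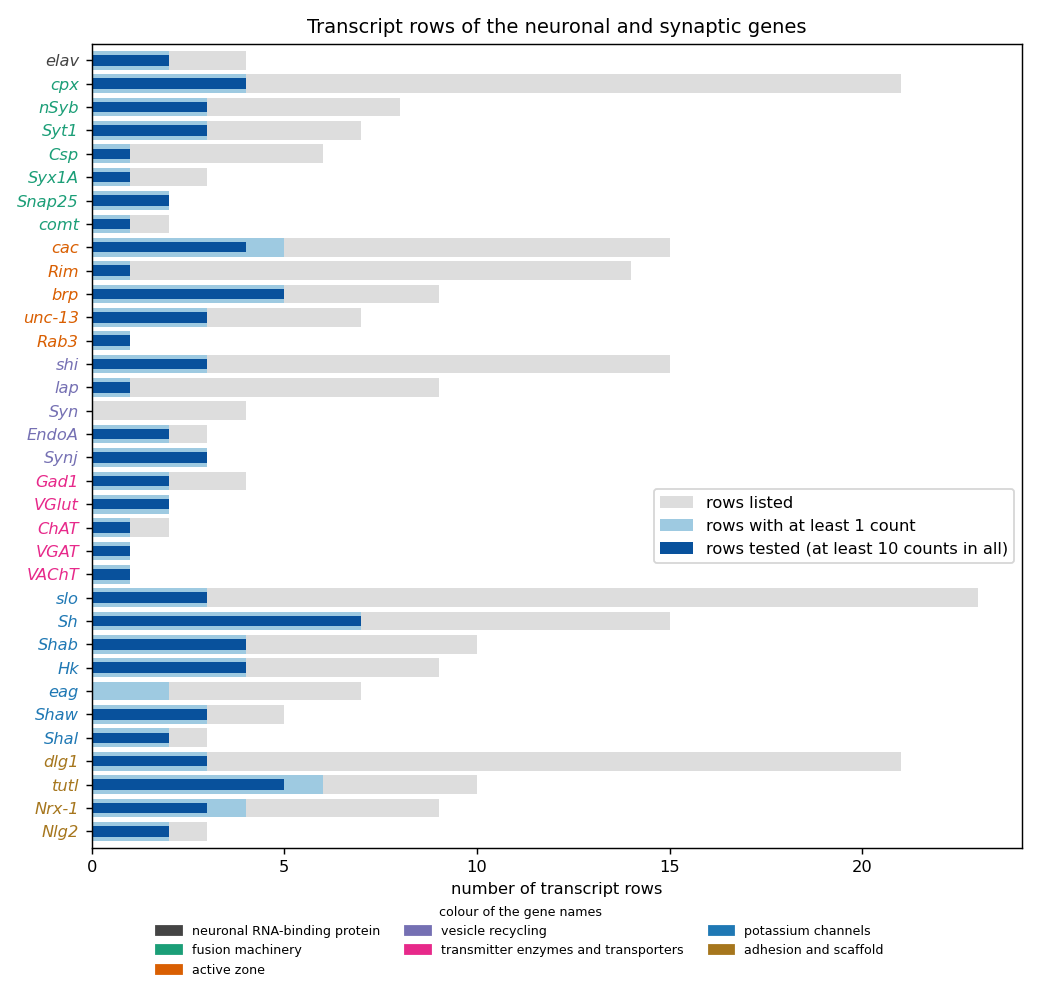
Number of RefSeq transcripts of each of the 34 genes that were listed (grey), had at least 1 count (light blue) and were tested (dark blue), with gene names coloured by role. Of 258 listed transcripts 83 were tested, and Syn and eag had none.

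The neuronal and synaptic transcripts mostly had lower values in the LB-flies, by small amounts that the test did not separate from the spread between libraries after adjustment. Of the 83 tested transcripts, 69 (83.1%) had a log2 fold change (LB over NB) under 0, against 52.6% of all 17337 tested transcripts. Their median log2 fold change was -0.34, against -0.02 over all tested transcripts. The quasi-likelihood test of edgeR, adjusted by the Benjamini-Hochberg method, called none of the 83 at an FDR of 0.05 and a 1.5-fold limit, and it called 0.0% of all tested transcripts. The smallest adjusted p among the 83 in edgeR was 0.625. At an unadjusted p under 0.05, 14 of them (16.9%) were lower in LB-flies, against 3.66% of all tested transcripts, and 0 were higher.

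limma-voom also called none of the 83, and it called 0 of all 17337 tested transcripts. It gave 13 of the 83 (15.7%) an unadjusted p under 0.05 in either direction, against 8.28% of all tested transcripts. DESeq2 called 1 of the 83, a transcript of tutl, and 0.438% of all tested transcripts. It gave 10 of the 83 (12%) an unadjusted p under 0.05 in either direction, against 6.36% of all tested transcripts, and it gave 34 of them, which were low in counts, no adjusted p. In edgeR that share was 7.57% of all tested transcripts. In 33 of the 83 (39.8%) all 3 LB libraries lay below both NB libraries, against 13.1% of all tested transcripts. In 2 all 3 LB libraries lay above both NB libraries, while 14.8% of all tested transcripts did so.

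The direction was also read by level. Among the 48 neuronal and synaptic transcripts with a mean of at least 1 CPM, 46 were lower in LB-flies, with a median log2 fold change of -0.35, and the exceptions were 1 transcript each of shi and Rim. Among all 12117 tested transcripts at that level, 6359 were lower and the median was -0.02. Of the 35 neuronal and synaptic transcripts under 1 CPM, 23 were lower, and 12 of the 83 had fewer than 20 counts over all libraries.

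**Figure D2:**
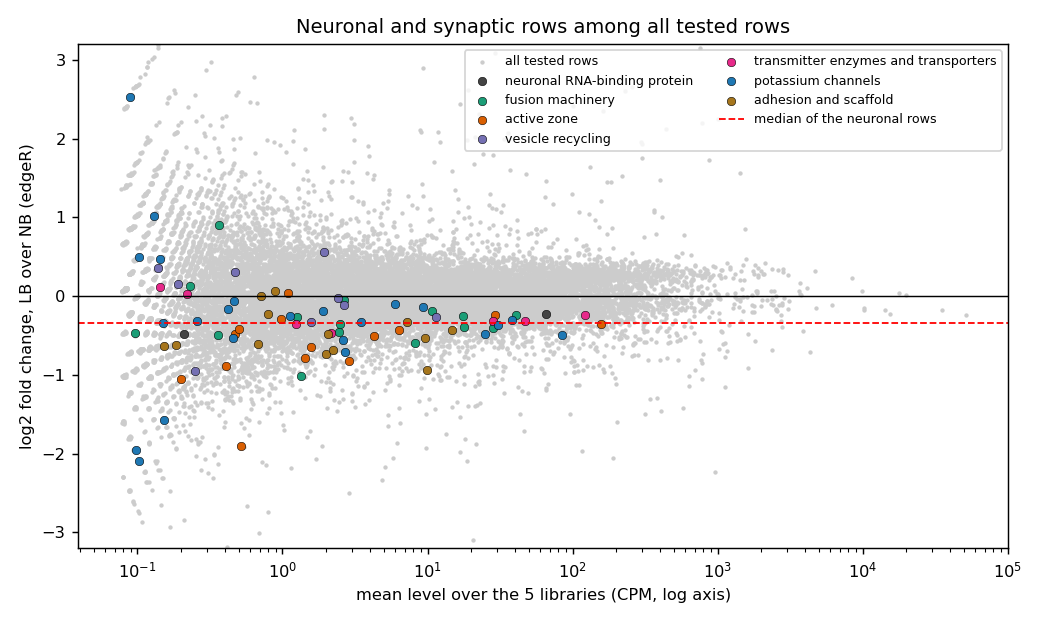
Log2 fold change (LB over NB, edgeR) against mean level (CPM, log axis), with all 17337 tested transcripts in grey, the 83 neuronal and synaptic transcripts coloured by role, and their median of -0.34 as a dashed red line; a few grey points lie beyond the vertical axis. Most coloured points above 1 CPM lie between 0 and -1.

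The summed level of the 83 transcripts was 930, 760 and 716 CPM in LB replicates 1, 2 and 3, against 989 and 1046 CPM in NB replicates 1 and 2. All 3 LB libraries were below both NB libraries, and LB replicate 1 was the nearest to them. The LB mean was 802 ± 113 CPM (SD, n = 3) and the NB mean 1017 ± 40.4 CPM (SD, n = 2), a ratio of 0.788. In whole-fly RNA a smaller share of neurons in the sample and less of these transcripts per neuron cannot be told apart.

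The libraries of a group were not alike. LB replicate 2 held the lowest value of the 5 libraries in 42 of the 83 transcripts, and NB replicate 2 the highest in 43. Relative to the NB mean, the median log2 level of the 48 transcripts at 1 CPM or more was -0.20, -0.50 and -0.51 in LB replicates 1, 2 and 3, against -0.07 and 0.07 in the NB libraries. The number of neuronal and synaptic transcripts with an unadjusted p under 0.05 in edgeR, and the share over all tested transcripts with it, depended on single libraries. It was 24 of 82 (29.3%) without LB replicate 1, against 11.8% of all tested transcripts, and 16 of 82 (19.5%) without LB replicate 3, against 6.66%. Without LB replicate 2 it was 3 of 81 (3.70%), against 3.78% of all tested transcripts, without NB replicate 1 it was 5 of 81 (6.17%), against 5.94%, and without NB replicate 2 it was 1 of 80 (1.25%), against 2.84%. In these last 3 fits the share among the neuronal and synaptic transcripts was near or below that over all tested transcripts. With a library left out, the number lower in LB-flies lay between 61 of 80 and 70 of 82, while 48.7% to 53.3% of all tested transcripts were lower, and the median log2 fold change between -0.49 and -0.28. Without LB replicate 1, 70 were lower and the median was -0.49.

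When the transcript with the most counts was taken for each of the 32 genes, 29 were lower in LB-flies, with a median log2 fold change of -0.32 and a range of -0.73 for Nlg2 to 0.90 for Csp. In 18 of the 32 the LB libraries all lay below both NB libraries, and in 1, that of Csp, all above. Over the most counted transcripts of all 14016 genes tested (transcripts without a symbol included), 51.4% were lower in LB-flies. Of these 14016 transcripts, 12.9% lay all below and 16.5% all above.

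**Figure D3:**
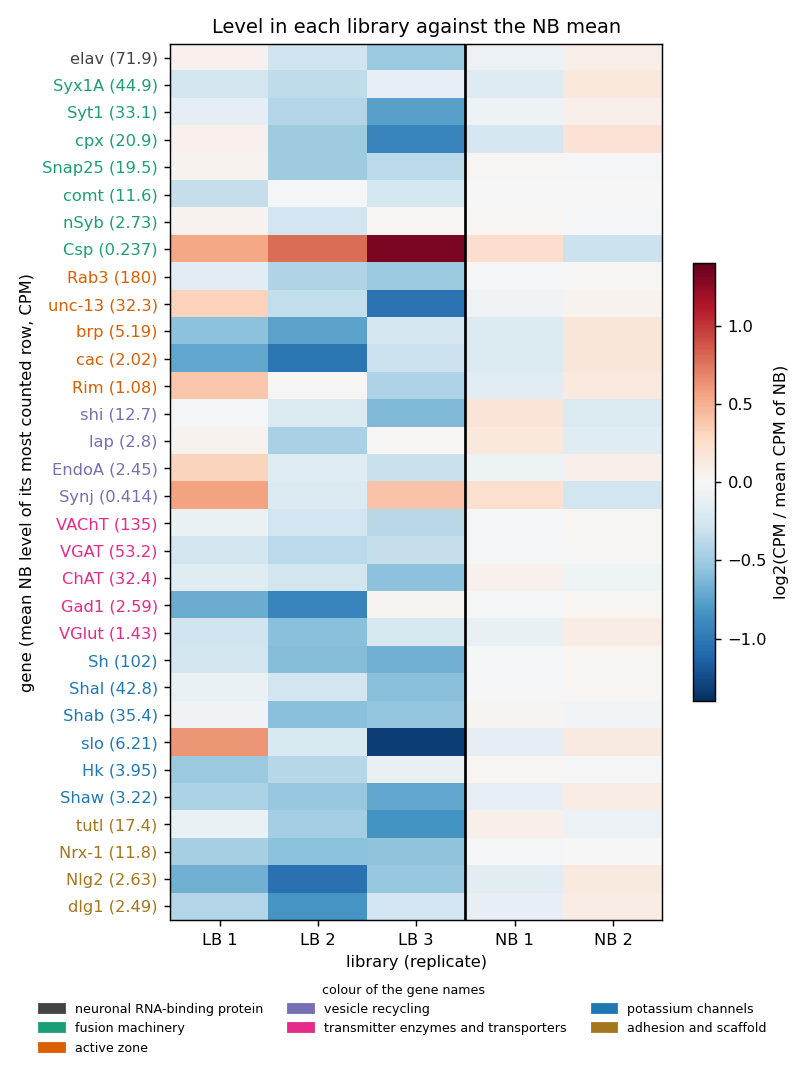
Level of the most counted transcript of each of 32 genes in the 5 libraries, as log2 of CPM over the mean CPM of the NB libraries (blue lower, red higher), with that mean in brackets and gene names coloured by role. LB replicates 2 and 3 are blue for most genes. A negative log2 fold change was found in 29 of the 32 transcripts, against 51.4% over all genes tested.

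elav encodes the RNA-binding protein found in nearly all postmitotic neurons and is the usual marker of the neuronal identity of a sample. Its most counted transcript, NM_001258518.3, had 75.0, 59.2 and 50.2 CPM in the LB libraries, against 67.8 and 76.0 CPM in the NB libraries. The groups overlapped through LB replicate 1. The log2 fold change was -0.23 (SE 0.19, unadjusted p = 0.275 in edgeR). Without LB replicate 1 it was -0.39 (unadjusted p = 0.0408 and adjusted p = 0.42 in edgeR), and without LB replicate 3 it was -0.11.

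The fusion machinery comprises the SNARE proteins, the calcium sensor and their chaperones. Of its 15 tested transcripts in 7 genes, 13 were lower in LB-flies, with a median log2 fold change of -0.36, and 1 had an unadjusted p under 0.05. That was a transcript of Syt1, the synaptotagmin that senses calcium, NM_001273036.1, with 6.80, 5.72 and 7.80 CPM in the LB libraries, against 9.91 and 10.6 CPM in the NB libraries. The groups did not overlap. Its log2 fold change was -0.59 (SE 0.19, unadjusted p = 0.0214). The other 2 tested transcripts of Syt1 were also lower in every LB library than in both NB libraries, and the most counted of them, NM_001298639.1, averaged 24.9 ± 5.37 CPM in LB-flies and 33.1 ± 2.19 CPM in NB-flies (SD, n = 3 and 2).

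Syx1A encodes the plasma membrane syntaxin of the SNARE complex and Snap25 its partner. Syx1A had 37.6, 35.1 and 41.4 CPM in the LB libraries, against 39.6 and 50.2 CPM in the NB libraries, and the groups overlapped. The most counted Snap25 transcript, NM_001043176.2, had 20.1, 13.8 and 15.1 CPM in the LB libraries, against 19.7 and 19.3 CPM in the NB libraries. Its less counted transcript, NM_001043177.3, was lower in all 3 LB libraries. It had 37, 7 and 26 counts there, against 46 and 52 counts in the NB libraries. Its log2 fold change was -1.01 (SE 0.53, unadjusted p = 0.101). Both Snap25 transcripts had at most 49 exon bases of their own, so their CPM cannot be set against those of other genes.

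nSyb encodes the vesicle SNARE synaptobrevin, and its most counted transcript was nearly level, with a log2 fold change of -0.06 (SE 0.22) that became 0.021 without LB replicate 2. cpx encodes complexin, which clamps the assembled SNAREs. Its most counted transcript had 21.8, 14.8 and 11.1 CPM in the LB libraries, against 17.8 and 24.1 CPM in the NB libraries, and the groups overlapped. comt encodes NSF, the ATPase that takes spent SNARE complexes apart, and it was lower in all 3 LB libraries with a log2 fold change of -0.19 (SE 0.17).

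Csp, the vesicle chaperone cysteine string protein, went the other way. Its single tested transcript, NM_001300215.1, had 9, 9 and 14 counts in the LB libraries, against 7 and 5 counts in the NB libraries. The groups did not overlap, but the log2 fold change of 0.90 (SE 0.49, unadjusted p = 0.113) rested on 44 counts in all.

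The active zone genes make the presynaptic site at which vesicles dock and calcium enters. Of 14 tested transcripts in 5 genes, 13 were lower in LB-flies, with a median log2 fold change of -0.49, and 2 had an unadjusted p under 0.05. brp, which encodes the scaffold protein Bruchpilot, had 5 tested transcripts, and all were lower. The most counted, NM_001259299.3, had 3.48, 3.09 and 4.43 CPM in the LB libraries, against 4.55 and 5.83 CPM in the NB libraries, without overlap and with a log2 fold change of -0.50 (SE 0.24, unadjusted p = 0.0807). A second, NM_001259298.2, had a log2 fold change of -0.82 (SE 0.40, unadjusted p = 0.0839).

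cac encodes the calcium channel subunit that triggers transmitter release, and its 4 tested transcripts were all lower in LB-flies. NM_001258709.2 had 8, 2 and 8 counts in the LB libraries, against 16 and 32 counts in the NB libraries. The groups did not overlap, and the log2 fold change was -1.90 (SE 0.57, unadjusted p = 0.0148). When the neuronal and synaptic transcripts were compared with the other transcripts of their gene, this was the only one with an unadjusted p under 0.05. The more counted cac transcript NM_001258707.2 had a log2 fold change of -0.64 (SE 0.30, unadjusted p = 0.0748).

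Rab3, the vesicle GTPase that organizes release sites, had 162, 135 and 126 CPM in the LB libraries, against 178 and 182 CPM in the NB libraries. All LB libraries were lower, with a log2 fold change of -0.35 (SE 0.14, unadjusted p = 0.0496).

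unc-13 encodes the vesicle priming factor, and its LB libraries were uneven. NM_001258497.2 had 40.5, 25.4 and 15.8 CPM in the LB libraries, against 31.1 and 33.5 CPM in the NB libraries, so that LB replicate 1 was the highest of the 5 and LB replicate 3 the lowest. Its log2 fold change of -0.24 (SE 0.37) turned to 0.02 without LB replicate 3. Rim, a scaffold that links vesicles to calcium channels, had 1.41, 1.09 and 0.801 CPM in the LB libraries, against 0.967 and 1.19 CPM in the NB libraries, and a log2 fold change of 0.03 (SE 0.34) that became -0.19 without LB replicate 1 and -0.093 without NB replicate 1.

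Vesicle recycling genes act after fusion, when membrane is pinched off and uncoated. Their 9 tested transcripts in 4 genes split into 5 lower and 4 higher in LB-flies, with a median log2 fold change of -0.03, and none had an unadjusted p under 0.05. shi encodes dynamin, which severs the endocytic vesicle, and its transcripts pointed in different directions. NM_001272660.2 had 12.4, 11.0 and 8.26 CPM in the LB libraries, against 14.3 and 11.0 CPM in the NB libraries, while NM_001042814.2 had 2.18, 1.86 and 2.57 CPM in the LB libraries, against 1.37 and 1.61 CPM in the NB libraries. The first overlapped between the groups, and the second was higher in all 3 LB libraries with a log2 fold change of 0.56 (SE 0.26, unadjusted p = 0.0714).

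lap encodes the clathrin adaptor AP180, EndoA the membrane-bending protein endophilin, and Synj the lipid phosphatase synaptojanin. lap had a log2 fold change of -0.11 (SE 0.26) and the most counted EndoA transcript -0.03 (SE 0.27), and in both genes the sign turned when single libraries were left out. For lap it was 0.016 without LB replicate 2 and 0.069 without NB replicate 1, and for EndoA it was 0.024 without LB replicate 2, 0.089 without LB replicate 3 and 0.035 without NB replicate 2. The 3 Synj transcripts had at most 16 counts in any library, and 2 of them had higher values in LB-flies.

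Transmitter enzymes and vesicular transporters define which transmitter a neuron releases. Of 7 tested transcripts in 5 genes, 5 were lower in LB-flies, with a median log2 fold change of -0.32, and 1 had an unadjusted p under 0.05. That was VGAT, the vesicular GABA transporter, with 44.4, 41.0 and 42.3 CPM in the LB libraries, against 52.6 and 53.9 CPM in the NB libraries. The libraries of each group lay close together and the groups did not overlap. The log2 fold change was -0.32 (SE 0.11, unadjusted p = 0.0288).

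Gad1, the enzyme that makes GABA, had 1.60, 1.36 and 2.65 CPM for its most counted transcript in the LB libraries, against 2.54 and 2.65 CPM in the NB libraries. LB replicate 3 was level with the NB libraries, and the log2 fold change was -0.47 (SE 0.33). VGlut, the vesicular glutamate transporter, had 1.18, 0.954 and 1.22 CPM in the LB libraries, against 1.33 and 1.53 CPM in the NB libraries, without overlap.

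In the cholinergic locus VAChT, the vesicular acetylcholine transporter, and ChAT, the enzyme that makes acetylcholine, share their first exon, and the rest of VAChT lies within the first intron of ChAT on the same strand. In the dm6 annotation ChAT spans chromosome 3R from 18705501 to 18732344 and VAChT from 18705501 to 18718916. VAChT had 127, 112 and 103 CPM in the LB libraries, against 133 and 138 CPM in the NB libraries. ChAT had 28.8, 27.0 and 21.8 CPM in the LB libraries, against 33.8 and 31.0 CPM in the NB libraries. All LB libraries were lower for both, with log2 fold changes of -0.25 (SE 0.13, unadjusted p = 0.108) and -0.32 (SE 0.16, unadjusted p = 0.0939). Reads of the shared exon that were set aside as ambiguous were in neither count. Per kilobase of its own exon sequence, VAChT had a level of 17.6 ± 1.86 CPM in LB-flies and 20.9 ± 0.569 CPM in NB-flies, and VGAT of 15.8 ± 0.634 CPM in LB-flies and 19.7 ± 0.339 CPM in NB-flies (SD, n = 3 and 2).

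The potassium channels repolarize the membrane and limit transmitter release. Their 23 tested transcripts in 6 genes included 19 lower in LB-flies, with a median log2 fold change of -0.32, and 6 had an unadjusted p under 0.05, 4 of them in Sh. Sh encodes the Shaker channel and lies on chromosome X from 17924307 to 18063247. Its most counted transcript, NM_078669.5, had 85.0, 67.0 and 64.2 CPM in the LB libraries, against 100 and 104 CPM in the NB libraries. NM_167594.4 had 23.4, 18.6 and 22.4 CPM in the LB libraries, against 29.9 and 30.1 CPM in the NB libraries. Neither overlapped between the groups, and their log2 fold changes were -0.50 (SE 0.15, unadjusted p = 0.0168) and -0.48 (SE 0.15, unadjusted p = 0.0181).

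The other 2 Sh transcripts with an unadjusted p under 0.05 were low in counts. NM_001316640.1 had 3, 1 and 2 counts in the LB libraries, against 7 and 6 counts in the NB libraries, and NM_001258798.2 had 1, 1 and 1 counts against 3 and 7 counts. Hk encodes the beta subunit of the Shaker channel. Its transcript NM_001258681.2 had 2.29, 1.82 and 2.32 CPM in the LB libraries, against 3.50 and 3.53 CPM in the NB libraries, without overlap and with a log2 fold change of -0.71 (SE 0.22, unadjusted p = 0.0162).

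Shaw, Shab and Shal encode voltage-gated relatives of Shaker. Shaw had 2.37, 2.23 and 1.94 CPM for NM_001273071.1 in the LB libraries, against 2.98 and 3.45 CPM in the NB libraries, and a log2 fold change of -0.56 (SE 0.22, unadjusted p = 0.0405). The most counted Shab transcript, NM_001104015.4, had 34.3, 23.6 and 24.2 CPM in the LB libraries, against 36.4 and 34.5 CPM in the NB libraries, and a log2 fold change of -0.37 (SE 0.20). Shal had 40.1, 35.9 and 28.5 CPM for NM_001104176.2 in the LB libraries, against 41.9 and 43.7 CPM in the NB libraries, and a log2 fold change of -0.30 (SE 0.17). In all 3 of these transcripts LB and NB libraries were separate, whereas the second Shal transcript, NM_079435.4, overlapped, at -0.14 (SE 0.30) and at 0.069 without LB replicate 3. A Shab transcript low in counts, NM_001274416.1, had the highest fitted log2 fold change of the 83, 2.53 (SE 1.58). It had 7, 3 and 0 counts in the LB libraries, against 0 and 1 counts in the NB libraries.

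slo encodes the calcium-activated potassium channel, and its LB libraries were uneven. NM_001170241.3 had 9.55, 5.36 and 2.49 CPM in the LB libraries, against 5.64 and 6.79 CPM in the NB libraries. LB replicate 1 was the highest library and LB replicate 3 the lowest, and the log2 fold change of -0.10 (SE 0.51) became 0.26 without LB replicate 3 and 0.028 without NB replicate 2.

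Adhesion and scaffold genes hold the synaptic partners together and guide their choice. Of 13 tested transcripts in 4 genes, 12 were lower in LB-flies, with a median log2 fold change of -0.53, and 4 had an unadjusted p under 0.05. tutl encodes the immunoglobulin superfamily protein Turtle, which acts in axon branching and dendrite spacing, and lies on chromosome 2L from 4283148 to 4323781. Its transcript NM_164577.3 had 197, 143 and 187 counts in the LB libraries, against 314 and 401 counts in the NB libraries. In CPM these were 7.52, 6.50 and 7.88 in the LB libraries, against 12.7 and 15.4 in the NB libraries.

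The 3 LB libraries of this tutl transcript lay close together and well below both NB libraries. The log2 fold change was -0.94 (SE 0.18), with an unadjusted p of 0.00182 and an adjusted p of 0.625 by the quasi-likelihood test of edgeR. It was the only one of the 83 that DESeq2 called down-regulated in LB-flies, with an adjusted p of 0.00859. Leaving out each library in turn gave edgeR log2 fold changes from -1.06 to -0.80.

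tutl NM_080127.6 had 1.99, 1.64 and 1.77 CPM in the LB libraries, against 2.62 and 3.18 CPM in the NB libraries, and a log2 fold change of -0.69 (SE 0.23, unadjusted p = 0.0226). The most counted tutl transcript, NM_001273091.1, had 16.3, 12.5 and 9.78 CPM in the LB libraries, against 18.3 and 16.5 CPM in the NB libraries. Its log2 fold change was -0.44 (SE 0.24, unadjusted p = 0.113). Both transcripts were lower in every LB library, and all 5 tested tutl transcripts had lower values in LB-flies.

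Nrx-1 encodes presynaptic neurexin and Nlg2 a neuroligin, the postsynaptic partner of neurexins. Nrx-1 NM_001275912.2 had 8.55, 7.95 and 7.97 CPM in the LB libraries, against 11.7 and 11.9 CPM in the NB libraries. The libraries of each group were almost level, and the log2 fold change was -0.53 (SE 0.15, unadjusted p = 0.0129). A second Nrx-1 transcript, NM_001300538.1, had 8.44, 7.50 and 3.62 CPM in the LB libraries, against 7.65 and 8.71 CPM in the NB libraries, and overlapped between the groups. Nlg2 NM_001258987.2 had 1.64, 1.27 and 1.81 CPM in the LB libraries, against 2.38 and 2.88 CPM in the NB libraries, and a log2 fold change of -0.73 (SE 0.26, unadjusted p = 0.0276). dlg1 encodes the scaffold protein Discs large of synapses and epithelia. Its most counted transcript had 1.87, 1.41 and 2.06 CPM in the LB libraries, against 2.30 and 2.69 CPM in the NB libraries, without overlap, while its other 2 tested transcripts overlapped between the groups.

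**Figure D4:**
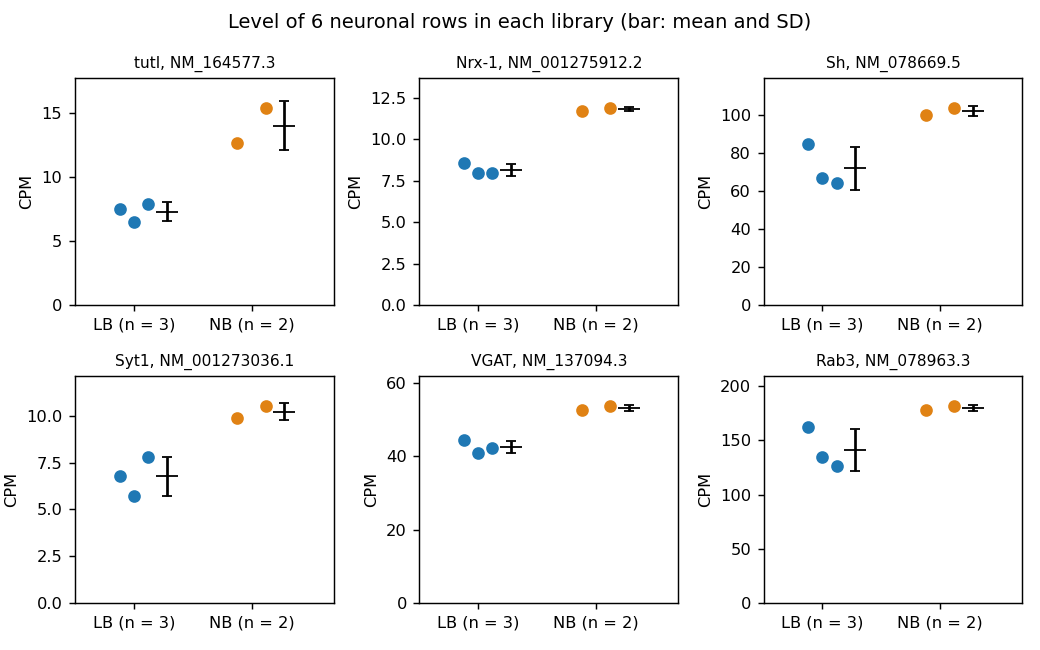
Level (CPM, from 0) of 6 transcripts in each library, LB-flies in blue and NB-flies in orange, with the mean and SD of each group as a bar beside the points. In all 6 the LB libraries lie below both NB libraries, from 7.30 ± 0.719 against 14.0 ± 1.94 CPM for tutl NM_164577.3 to 141 ± 19.1 against 180 ± 2.82 CPM for Rab3.

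Whether single transcripts of a gene differed from the others was tested for the 74 tested transcripts of the 23 genes with at least 2. edgeR's test of each transcript against the other transcripts of its gene called none of the 74 at an FDR of 0.05, and it called 0.0% of the 5564 transcripts tested in 2243 genes, with 88 of these at an unadjusted p under 0.05 and a smallest adjusted p of 0.155. In 14 of the 23 genes all tested transcripts were lower in LB-flies, in 9 they lay in both directions, and in none were all higher.

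When the transcripts of a gene were summed, 33 genes entered the fit, eag among them, and 31 were lower in LB-flies, with a median log2 fold change of -0.32. Over all 14048 genes of that fit, 52.6% were lower. Csp and Rim were the genes with higher values, at 0.89 and 0.02. For Csp the sum was 1 counted transcript of 6 listed, with 44 counts, and for Rim 1 of 14, with 135 counts. Gene sums leave out the reads set aside as ambiguous. The gene sums of tutl, Sh, VGAT, Nlg2, Syt1, cac, Hk and Rab3 had an unadjusted p under 0.05 in edgeR. These were 8 of the 33 genes, against 1197 of all 14048 genes in either direction. The log2 fold changes were -0.64 (SE 0.16, unadjusted p = 0.00706) for tutl and -0.50 (SE 0.14, unadjusted p = 0.0117) for Sh. edgeR called none of the 33 after Benjamini-Hochberg adjustment, and it called 0 of all 14048 genes.

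Other genes of neuronal signalling were read from the same fit as lists of receptors, monoamine genes, channels and neuron markers. Of 18 tested transcripts of acetylcholine receptors and cholinergic genes, 15 were lower in LB-flies, with a median log2 fold change of -0.36, and 2 had an unadjusted p under 0.05. nAChRbeta1, a nicotinic receptor subunit, had 8.40, 7.50 and 8.51 CPM for NM_168086.2 in the LB libraries, against 13.6 and 14.2 CPM in the NB libraries. The groups did not overlap, with a log2 fold change of -0.77 (SE 0.16, unadjusted p = 0.00249 in edgeR), and DESeq2 called it down-regulated with an adjusted p of 0.018. Its most counted transcript, NM_079203.3, averaged 141 ± 24.4 CPM in LB-flies and 179 ± 10.2 CPM in NB-flies (SD, n = 3 and 2).

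Of 23 tested transcripts of monoamine genes, 16 were lower, with a median log2 fold change of -0.21, and 2 had an unadjusted p under 0.05. Vmat, the vesicular monoamine transporter, had 9.74, 7.68 and 10.3 CPM for NM_001014525.3 in the LB libraries, against 18.1 and 16.0 CPM in the NB libraries. DESeq2 called it down-regulated with an adjusted p of 0.027, and its edgeR log2 fold change was -0.88 (SE 0.19, unadjusted p = 0.00296). The dopamine receptor gene Dop1R1 had a log2 fold change of -0.51 (SE 0.16, unadjusted p = 0.019). Ddc, the enzyme that makes dopamine and serotonin and also serves cuticle formation, was uneven among LB libraries, at 48.2 ± 42.6 CPM in LB-flies and 47.6 ± 5.14 CPM in NB-flies (SD, n = 3 and 2).

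Glutamate and GABA receptors gave 16 lower of 21, with a median log2 fold change of -0.17. At an unadjusted p under 0.05 in edgeR, 3 were lower and 1 was higher in LB-flies. The NMDA receptor subunit gene Nmdar1 (-0.46, SE 0.14, unadjusted p = 0.0135) and the metabotropic receptor gene mGluR (-0.82, SE 0.30, unadjusted p = 0.0325) had lower values. A transcript of GluClalpha, a glutamate-gated chloride channel, had 18, 7 and 13 counts in the LB libraries, against 3 and 6 counts in the NB libraries, with an unadjusted p of 0.0343. GluRIIA, a receptor subunit of the neuromuscular junction and so of muscle, averaged 67.4 ± 2.43 CPM in LB-flies and 63.1 ± 8.76 CPM in NB-flies (SD, n = 3 and 2).

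Other channels of excitable membranes gave 38 lower of 51, with a median log2 fold change of -0.36 and 9 at an unadjusted p under 0.05, all lower in LB-flies. unc79, a subunit of the sodium leak channel complex, had a log2 fold change of -0.89 (SE 0.23, unadjusted p = 0.00757), and NM_001274245.2 of the sodium channel gene NaCP60E one of -0.81 (SE 0.22, unadjusted p = 0.00863). The most counted NaCP60E transcript, NM_001259579.3, overlapped between the groups, at -0.29 (SE 0.24, unadjusted p = 0.273 in edgeR). unc80, which acts in the same leak channel complex as unc79, had 0, 0 and 1 counts in the LB libraries, against 6 and 8 counts in the NB libraries. Other neuron markers gave 33 lower of 38, with a median of -0.39. Of these 38, 2 (5.26%) were lower at an unadjusted p under 0.05 in edgeR, against 3.66% of all tested transcripts. Their most counted transcript, of the neuronal RNA-binding protein gene Rbp9, averaged 69.3 ± 22.5 CPM in LB-flies and 89.8 ± 2.21 CPM in NB-flies (SD, n = 3 and 2). In none of these 5 lists did edgeR or limma-voom call a transcript, and both called 0 of all tested transcripts.

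**Figure D5:**
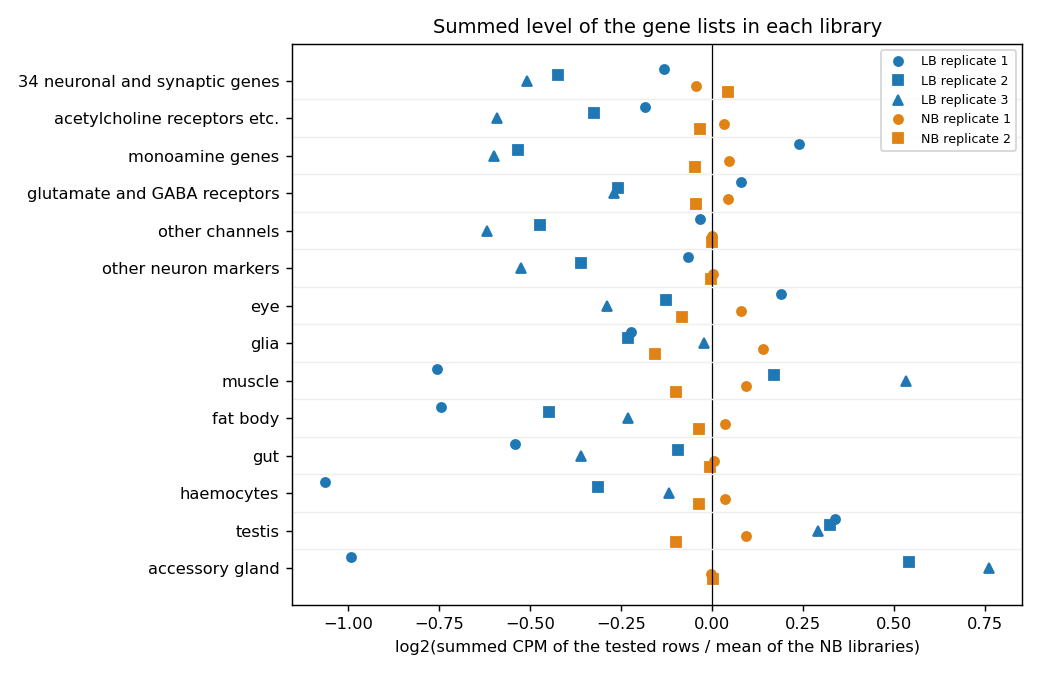
Summed level of the tested transcripts of each list in each library, as log2 of the sum in CPM over the mean of the NB libraries, with LB-flies in blue and NB-flies in orange. The 34 neuronal and synaptic genes are below both NB libraries in all 3 LB libraries. The acetylcholine, other channel, other neuron marker, gut, haemocyte and fat body sums are so too. The monoamine, glutamate receptor and eye sums of LB replicate 1 lie above both NB libraries. Ddc alone held 97.4 of the 234 CPM of that monoamine sum.

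Markers of other tissues moved between the libraries as well. Eye markers, which belong to photoreceptor neurons, had 15 of 22 tested transcripts lower, with a median log2 fold change of -0.20, and summed to 11700 to 16300 CPM in the LB libraries and 13500 and 15100 CPM in the NB libraries. The groups overlapped, and the opsin gene ninaE alone made up most of the sum. Glia markers had 9 of 15 lower, with a median of -0.05, and sums of 208 to 240 CPM in the LB libraries and 219 and 269 CPM in the NB libraries.

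Gut markers had 9 of 10 tested transcripts lower, with a median of -0.46, and sums of 10400 to 14200 CPM in the LB libraries, against 15100 and 15200 CPM in the NB libraries. Haemocyte markers had 4 of 4 lower, with a median of -0.39, and sums of 18.3 to 35.2 CPM in the LB libraries, against 37.3 and 39.2 CPM in the NB libraries. Both sums were lower in all 3 LB libraries than in both NB libraries. So were those of the neuronal and synaptic transcripts, the cholinergic, other channel and other neuron marker lists, and the fat body markers.

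Testis markers lay the other way, with 0 of 11 lower, a median of 0.34 and sums of 6650 to 6880 CPM in the LB libraries, against 5080 and 5800 CPM in the NB libraries. Accessory gland markers had 0 of 7 lower and a median of 0.31, but their sums ranged from 1320 to 4450 CPM in the LB libraries around the 2620 and 2630 CPM of the NB libraries. Muscle markers had 18 of 29 lower, with a median of -0.12, and fat body markers 3 of 8 lower, with a median of 0.43. The sums of the fat body markers were nevertheless lower in all 3 LB libraries. They were 311 to 444 CPM there, against 508 and 534 CPM in the NB libraries. Apoltp alone made up most of them, with 285.5, 342.5 and 366.6 CPM in the LB libraries, against 460.5 and 444.8 CPM in the NB libraries. Some of the defining markers had no tested transcript. These were chp and inaD of the eye, betaTry of the gut, Fbp1 of the fat body and the haemocyte genes Hml, Pxn and He. Of these, chp and Fbp1 were at 0 in every library. The part of these tissues in the values of the neuronal and synaptic transcripts was not tested.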

How the data were processed

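The data were RNA-seq counts from poly(A)+ RNA of pooled whole males, with 3 LB and 2 NB libraries. By the submitters' processing notes, the authors checked reads with FastQC, trimmed them with Trim Galore and cutadapt, aligned them with HISAT2 to dm6 and ran HTSeq for counting. What was deposited are whole-number counts per RefSeq transcript, not normalized. The counting mode and strand setting are not given in the sources used here. The 5 summary lines at the end of each file entered neither library sizes nor tests. No column of a sample outside the series was found (0 unused columns).

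Transcripts were matched to symbols by RefSeq identifier (33912 of 34111, 146 of them only without the version, among them 3 of the neuronal and synaptic transcripts). Exon bases held by 1 transcript were found in the Ensembl BDGP6 annotation, in which all 34 genes had the same positions as in the RefSeq gene table. Transcripts with a sum of at least 10 counts were normalized by TMM and tested with edgeR 4.0.16 (glmQLFit and glmQLFTest) in R 4.3.3, without covariates, with Benjamini-Hochberg adjustment over all 17337, an FDR of 0.05 and a 1.5-fold limit. The standard error (SE) was taken as the size of the log2 fold change divided by the square root of F. Transcripts were compared within genes with diffSpliceDGE. DESeq2 1.42.0 with default filtering, limma-voom (limma 3.58.1), size factors of DESeq2 in edgeR, all counted transcripts unfiltered, a minimum of 10 counts per library, gene sums, replicate blocks and leaving out each library were alternatives. The fits were checked on simulated counts.

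The genes, the lists of other genes and the tests were chosen with earlier results of these data known. Transcripts were named when they had the most counts of their gene, an unadjusted p under 0.05, a call by any tool or the highest or lowest fold change of their gene, and of each other list up to 3 with an unadjusted p under 0.05 or the most counts. Not every transcript that met the rule on highest or lowest fold change is named.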

Additional observations from a re-analysis of the deposited data

How the results depend on the processing

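The depth limits the transcripts under 1 CPM, where a library held few counts, and the count of small p-values turned on single libraries of either group. DESeq2 called 76 of all tested transcripts and 1 neuronal and synaptic transcript. With the transcripts of a gene summed, 31 of the 33 genes were lower, against 52.6% of all 14048 genes. In edgeR 8 of the 33 had an unadjusted p under 0.05, against 1197 of the 14048. With at least 10 counts in every library, the test within genes called 3 transcripts, none of them among the 34 genes. Leaving out each library in turn gave 0 to 1 calls among all tested transcripts and none among the neuronal and synaptic ones. It gave 482 to 2007 of all tested transcripts with an unadjusted p under 0.05, 1 to 24 of the neuronal and synaptic ones. Between 34 and 51 of the neuronal and synaptic ones then had all remaining LB libraries below the remaining NB libraries (34 of 81 without LB replicate 2, against 17.2% of all tested transcripts, and 51 of 81 without NB replicate 1, against 28.4%), and with fewer libraries this is met more often over all transcripts too. Without LB replicate 3, edgeR called 1 of all tested transcripts.

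The labels number the libraries by repeat and by library name. By repeat, deviations from the group means over 6886 transcripts correlated at -0.18 (LB replicate 1 and NB replicate 1) and 0.02 (LB replicate 2 and NB replicate 2). By library name they correlated at -0.18 and -0.20 (LB replicate 3 and NB replicate 2). The deviations of 2 NB libraries from their mean mirror each other, so these values cannot decide whether the numbers pair the libraries. With a replicate block by repeat number, edgeR called 5 of all 17337 tested transcripts, and the test within genes called 3. An unadjusted p under 0.05 was given to 805 of the 17337 and to 7 of the 83 neuronal and synaptic transcripts. With the replicate block by library name, edgeR called 0 of all tested transcripts, and the test within genes called 2. An unadjusted p under 0.05 was then given to 422 of the 17337 and to 2 of the 83, nearly the same share. Neither block called a neuronal and synaptic transcript. Of the 83, 70 were lower by repeat number, against 52.7% of all tested transcripts, and 64 by library name, against 53.7%. By repeat number LB replicate 3 was alone in its block, and by library name LB replicate 2 was. A library alone in its block adds nothing to the fold change, so these fits also set that library aside. The log2 fold change of elav NM_001258518.3, for example, was -0.1075 both with the block by repeat number and without LB replicate 3.

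Of 730 values of 62 named transcripts under the alternatives, 705 kept their direction and side of the threshold, 3 became called (by DESeq2: tutl NM_164577.3, nAChRbeta1 NM_168086.2 and Vmat NM_001014525.3) and 22 changed sign, in 9 transcripts. With the block by repeat number EndoA NM_001275788.1 was at 0.080, slo NM_001170241.3 at 0.21 and Shal NM_079435.4 at 0.062, and with that by library name nSyb NM_001274341.1 was at 0.037, lap NM_001260029.2 at 0.040 and EndoA NM_001275788.1 at 0.011. With limma-voom Ddc NM_078876.5 was at -0.30. Over the libraries left out, the log2 fold changes ranged from -0.11 to 0.021 for nSyb NM_001274341.1, -0.64 to 0.022 for unc-13 NM_001258497.2, -0.19 to 0.21 for Rim NM_001260239.1, -0.27 to 0.069 for lap NM_001260029.2, -0.23 to 0.089 for EndoA NM_001275788.1, -0.66 to 0.26 for slo NM_001170241.3, -0.40 to 0.069 for Shal NM_079435.4, -1.004 to 0.34 for Ddc NM_078876.5 and -0.046 to 0.26 for GluRIIA NM_078760.3. The cause of these changes was not tested.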
